A study of Mus musculus with 20 samples.

Results

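Hair shaft and inner root sheath keratins and the keratin-associated proteins (Krtap genes) were followed through RNA-seq libraries of mouse ear pinnae, the external ears, which hold epidermis, hair follicles, sebaceous glands, dermis, cartilage and muscle. The set was taken by symbol: every Krtap gene, together with Krt25 to Krt28, Krt31, Krt32, Krt33a, Krt33b, Krt34 to Krt36, Krt71 to Krt75, Krt79 and Krt81 to Krt86. Of 80 annotated genes of these names, 13 were among the 16669 genes of the expression table: 11 of 22 keratins and 2 of 58 Krtap genes. The other 67 were not analysed here. The right pinna received an intradermal injection of 10 µl, of PBS alone in the control group and of a mouse cytokine diluted in PBS to 0.1 µg/µl in the other 3 (IL-4, IL-13, IL-31). Each of the 4 groups had 5 libraries, named here by group and number (PBS 5, IL-4 3). Strain, genotype, sex, age, the number of injections, the time to harvest and the hair cycle stage were not stated in the labels. Nor do the labels say that the 5 libraries of a group came from separate animals, so p-values measure only the spread between these libraries.

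Hair follicles pass through growth (anagen), regression (catagen) and rest (telogen). In anagen, matrix cells at the base of the follicle divide and differentiate in concentric layers: the inner root sheath outside, with its keratins Krt25 to Krt28 and Krt71 to Krt74 and the granule protein trichohyalin, and the hair shaft inside, built from the hair keratins of the Krt31 to Krt40 and Krt81 to Krt86 series and cross-linked by Krtap proteins. A resting follicle makes neither layer, so RNA of these genes is high in skin with growing follicles and low in resting skin. Krt75 belongs to the companion layer around the inner sheath, and Krt79 to cells that line the opening of the follicle and the sebaceous duct. IL-4, IL-13 and IL-31 are cytokines of allergic skin inflammation and itch.

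The type I keratins of the set lie on chromosome 11 and the type II keratins on chromosome 15, in the keratin clusters, and all 13 genes are protein-coding and on the minus strand. The upstream sequence of 5 of the follicle keratins that peaked in the same PBS libraries, or in some of them, is shown with that of Krtap3-2, which did not. Each line gives the 250 bases before the RefSeq start of transcription (GRCm38.p6, read 5′ to 3′ on the minus strand). Capitals mark AGATAA, a form of the site bound by GATA factors such as the inner sheath regulator Gata3, and TATAAA, the TATA box.

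Krt25: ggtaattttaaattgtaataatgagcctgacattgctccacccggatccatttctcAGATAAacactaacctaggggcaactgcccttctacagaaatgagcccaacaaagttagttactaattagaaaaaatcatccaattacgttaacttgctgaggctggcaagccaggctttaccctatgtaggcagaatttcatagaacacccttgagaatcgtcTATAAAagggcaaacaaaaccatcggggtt
Krt27: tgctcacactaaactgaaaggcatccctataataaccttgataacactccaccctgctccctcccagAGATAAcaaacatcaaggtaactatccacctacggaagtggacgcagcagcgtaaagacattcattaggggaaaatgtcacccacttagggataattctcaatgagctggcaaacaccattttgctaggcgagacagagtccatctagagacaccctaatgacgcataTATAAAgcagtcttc
Krt71: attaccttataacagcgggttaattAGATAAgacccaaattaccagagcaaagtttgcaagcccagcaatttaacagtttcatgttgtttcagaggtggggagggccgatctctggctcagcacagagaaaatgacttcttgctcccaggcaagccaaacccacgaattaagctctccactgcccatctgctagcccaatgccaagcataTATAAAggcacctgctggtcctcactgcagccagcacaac
Krt73: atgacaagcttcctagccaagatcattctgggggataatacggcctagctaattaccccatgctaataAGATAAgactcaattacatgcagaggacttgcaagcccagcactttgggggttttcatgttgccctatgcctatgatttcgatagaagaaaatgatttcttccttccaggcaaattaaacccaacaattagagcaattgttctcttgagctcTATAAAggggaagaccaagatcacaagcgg
Krtap3-2: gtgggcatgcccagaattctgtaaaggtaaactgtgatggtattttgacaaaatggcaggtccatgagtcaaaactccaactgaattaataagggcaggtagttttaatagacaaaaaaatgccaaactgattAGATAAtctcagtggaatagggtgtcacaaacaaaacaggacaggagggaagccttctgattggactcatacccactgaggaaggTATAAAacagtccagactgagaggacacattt
Krt31: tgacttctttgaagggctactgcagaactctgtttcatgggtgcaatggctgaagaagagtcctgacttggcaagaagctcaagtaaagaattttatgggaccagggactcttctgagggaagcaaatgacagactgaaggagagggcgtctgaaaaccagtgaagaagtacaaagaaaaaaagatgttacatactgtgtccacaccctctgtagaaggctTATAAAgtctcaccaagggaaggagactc

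These stretches are chr11:99322952-99323201, chr11:99351119-99351368, chr15:101743098-101743347, chr15:101802361-101802610, chr11:99556854-99557103 and chr11:100050552-100050801, in that order. RefSeq gave an upstream sequence for 12 of the 13 genes, Krt35 being without one. Searched on both strands, AGATAA occurred in the same 5 of 12 genes in which it is capitalised above (Krt25, Krt27, Krt71, Krt73 and Krtap3-2), and in 9.99% of 32851 RefSeq upstream sequences of the same length. It lay 194 bases before the start in Krt25, 183 in Krt27, 182 in Krt73, 225 in Krt71 and 117 in Krtap3-2. TATAAA occurred in 9 of 12, against 12.4% of all. Forms of the site of Lef1 and its relatives were rarer: CTTTGAA in Krt31 and Krt32 (4.46% of all sequences), CTTTGTT in Krt25 (5.03%), CTTTGTA in Krt31 (3.20%) and CTTTGAT in no member (3.21%). A match describes the letters only. AGATAA was present in 4 of the 5 inner sheath keratins and also in Krtap3-2, whose RNA followed another pattern. The inner sheath keratin without AGATAA, Krt28, peaked in the same PBS libraries, and its sequence is not shown above.

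Levels are the authors' log2 CPM, read counts scaled for library size. On the linear scale the libraries summed to between 921691 and 1113112, so they did not have an equal total. Zero reads stand at -2.68, and 1 CPM just above 0. From the steps between low values, a library's effective depth came to between 6.12 and 23.7 M reads (median 13), so that 3 reads were worth between 0.126 and 0.49 CPM. Of the 13 members 12 passed the filter on low values (at least 0 in 5 or more of the 20 libraries) and were tested. Krt31 reached 0 in 4 libraries and is described without a test. A member that is high in a few PBS libraries passes this filter because of them. Krt25, Krt27, Krt28, Krt35 and Krt71 reached 0 in only 3, 1, 4, 1 and 3 of the 15 cytokine libraries. They were therefore tested only because of their PBS libraries. Set side by side per kilobase of exon, the mean over 20 libraries was 83 CPM per kb for Krt79, 12.6 for Krtap3-2, 9.75 for Krt75, 3.58 for Krt32, 3.30 for Krt71 and 2.80 for Krt25. All other members were below 1.60 CPM per kb.

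The inner root sheath keratins were high in some PBS ears and low in the ears given a cytokine, where the highest libraries, IL-4 3 and IL-31 4, held the equivalent of 22 and 24 reads of Krt71 and 25 and 35 of Krt25. Krt71 (chromosome 15, 101733949 to 101743109, GRCm38), a type II keratin of all inner sheath layers, stood at 1.36, 4.48, 2.61, -1.60 and 6.77 log2 CPM in PBS libraries 1 to 5. It stood at -0.88, -1.52, 0.94, -2.68 and -2.68 with IL-4, at -2.68, -2.10, 0.21, -2.68 and -1.72 with IL-13, and at -2.68, -1.52, -1.13, 0.22 and -2.68 with IL-31. PBS 5 held the equivalent of 1268 reads, PBS 2 of 247, PBS 3 of 77, PBS 1 of 22 and PBS 4 of 2, while no cytokine library held more than 24. For Krt71, PBS 1, 2, 3 and 5 lay above all 15 cytokine libraries, and PBS 4 lay among them.

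Krt25 (chromosome 11, 99315516 to 99322951), a type I partner of Krt71 in the inner sheath, ran almost in parallel. Its PBS levels were 0.76, 4.87, 2.87, -2.04 and 6.06 log2 CPM. With IL-4 they were -1.52, -0.26, 1.11, -2.14 and -2.68, with IL-13 -2.11, -1.10, 0.11, -0.76 and -2.13, and with IL-31 -1.44, -1.81, -0.40, 0.71 and -2.68. In the PBS libraries Krt71 exceeded Krt25 by between -0.39 and 0.71 on the log2 scale, although both genes ranged over 8.10 log2 units or more there. The highest cytokine library was IL-4 3 for both, above PBS 4 and, for Krt25, above PBS 1.

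Krt27 (chromosome 11, 99345565 to 99351104), Krt28 (chromosome 11, 99364872 to 99374903) and Krt73 (chromosome 15, 101793308 to 101802346) are the other measured inner sheath keratins. They peaked in the same order of PBS libraries. Krt27 reached 4.85 log2 CPM in PBS 5, 2.44 in PBS 2 and 1.55 in PBS 3, with 0.45 in PBS 1 and -2.68 in PBS 4. Krt28 was at 3.85, 2.21, 2.11, 0.66 and -1.60 in that order, and Krt73 at 4.26, 2.72, 2.33, -1.04 and -1.26. Over the 15 cytokine libraries none of the 3 rose above 1.05. Summed on the linear scale, the 5 inner sheath keratins gave 6.91, 67.4, 24.9, 0.701 and 237.1 CPM in PBS 1 to 5. The cytokine libraries gave at most 7.76 CPM with IL-4 (library 3), 4.23 with IL-13 (library 3) and 5.35 with IL-31 (library 4).

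**Figure D1:**
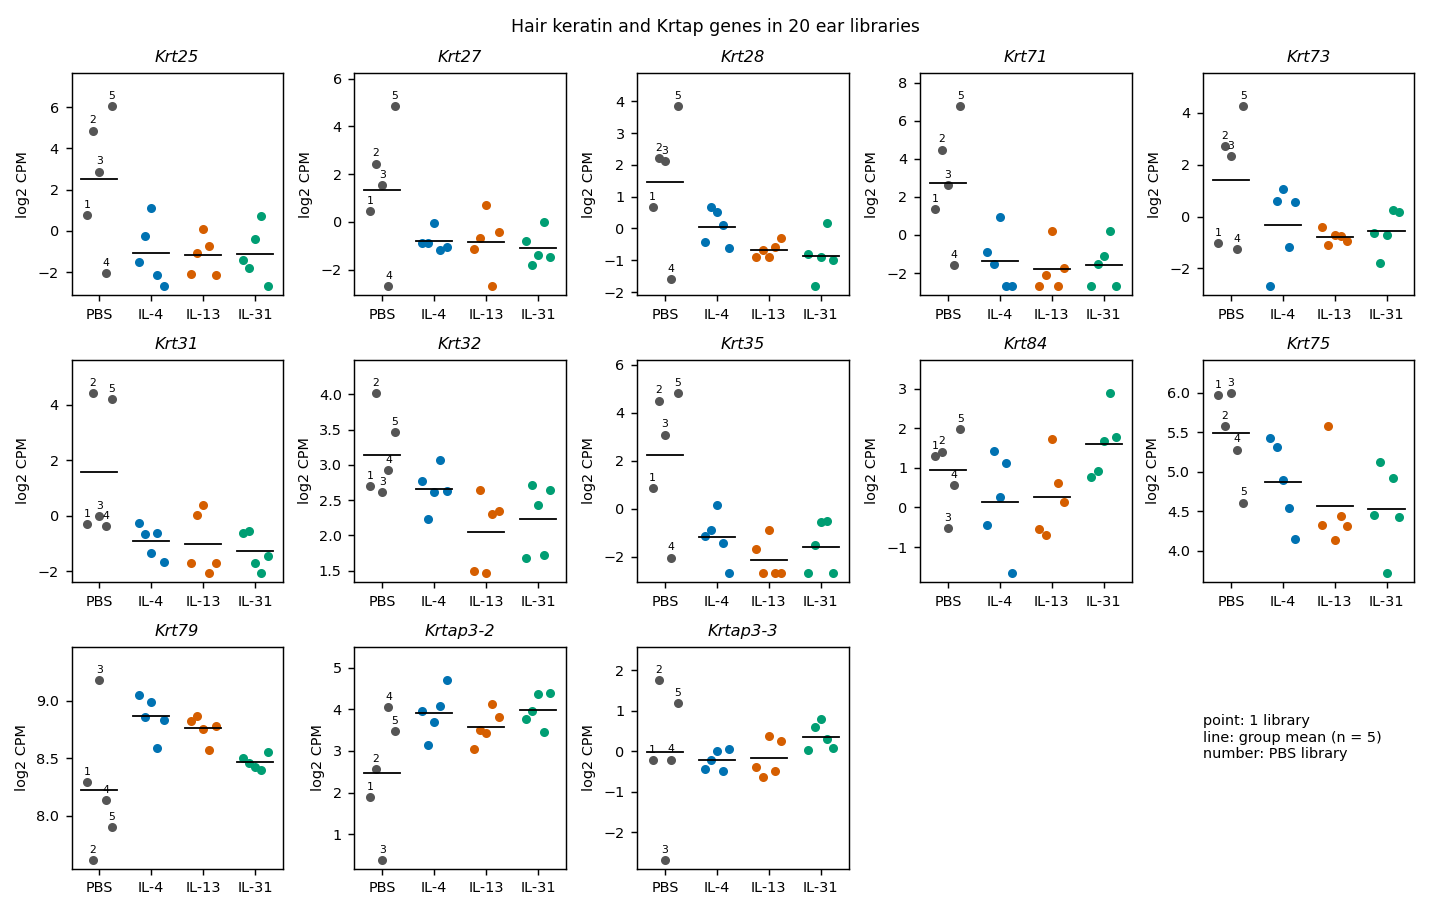
Level of each of the 13 measured genes (vertical axis, log2 CPM, a scale of its own in each panel) in 5 libraries of each group, with PBS libraries numbered and the group mean as a line. Krt25, Krt27, Krt28, Krt35, Krt71 and Krt73 were highest in PBS 5, then PBS 2, then PBS 3, while PBS 4 lay among the cytokine libraries.

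Hair shaft keratins divided into those that followed the inner sheath and those that did not. Krt35 (chromosome 11, 100092193 to 100096241), a type I keratin made early in the matrix and cuticle of the shaft, had the inner sheath pattern. PBS levels were 0.85, 4.50, 3.08, -2.04 and 4.82 log2 CPM, from the equivalent of 15, 251, 108, 1 and 327 reads. With IL-4 the levels were -1.16, -0.88, 0.16, -1.43 and -2.68, with IL-13 -1.70, -2.68, -0.89, -2.68 and -2.68, and with IL-31 -2.68, -1.52, -0.55, -0.51 and -2.68. Zero reads were listed in 6 of the 15 cytokine libraries, and 4 of 5 PBS libraries lay above all 15.

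Krt31 (chromosome 11, 100046646 to 100050551), a type I keratin made later, in the shaft cortex, was high in fewer ears. Its levels were -0.30, 4.42, -0.03, -0.38 and 4.19 log2 CPM in PBS 1 to 5, and between -2.06 and 0.39 over the cytokine libraries. PBS 2 and PBS 5, with the equivalent of 238 and 211 reads, stood apart, and PBS 3, which was the third for Krt35, was level with PBS 1 and PBS 4. The difference Krt31 minus Krt35 was -0.08 in PBS 2 and -0.63 in PBS 5, but -3.11 in PBS 3. Krt31 belongs to a family of closely related neighbours (Krt33a, Krt33b and Krt34), and how reads shared among them were counted is not stated in the labels.

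Krt32 (chromosome 11, 100080848 to 100088226), a type I keratin of the shaft cuticle, was present in all 20 libraries. PBS levels were 2.70, 4.02, 2.61, 2.93 and 3.46 log2 CPM. They were 2.77, 2.23, 2.62, 3.07 and 2.63 with IL-4, 1.49, 2.65, 1.47, 2.31 and 2.35 with IL-13, and 1.68, 2.71, 2.43, 1.73 and 2.64 with IL-31. PBS 2 and PBS 5 were again the 2 highest, but the lowest PBS libraries overlapped each cytokine group. An antisense gene, Gm11571, overlaps Krt32, and without a stated strand setting its reads cannot be told apart from those of Krt32. Krt84 (chromosome 15, 101525026 to 101532820), a type II hair keratin also known from the tongue, stood at 1.30, 1.41, -0.52, 0.56 and 1.97 with PBS. It was at -0.44, 1.42, 0.26, 1.11 and -1.65 with IL-4, at -0.54, -0.69, 1.73, 0.62 and 0.15 with IL-13, and at 0.78, 0.92, 1.67, 2.89 and 1.78 with IL-31. Its highest library was IL-31 4, and the 4 groups overlapped throughout.

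Krt75 (chromosome 15, 101563345 to 101573904), the companion layer keratin, had a different order among PBS ears. It stood at 5.97, 5.58, 6.0, 5.28 and 4.61 log2 CPM, so that PBS 5, the highest library for the inner sheath, was the lowest here. Levels were 5.43, 5.31, 4.90, 4.54 and 4.15 with IL-4, 4.33, 5.58, 4.14, 4.44 and 4.32 with IL-13, and 4.45, 5.12, 3.72, 4.92 and 4.43 with IL-31. PBS 4, which had next to no inner sheath RNA, held Krt75 at 5.28. The mean over 12 genes of follicle stem cells was also lowest of all libraries in PBS 5 (4.48 log2 CPM, against 5.30 to 5.73 in the other PBS ears).

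Krt79 (chromosome 15, 101929332 to 101940324) was the most abundant member and made up between 41.6% (PBS 5) and 93.1% (IL-13 1) of the summed CPM of the set. It stood at 8.29, 7.62, 9.18, 8.14 and 7.90 log2 CPM with PBS, at 9.05, 8.86, 8.99, 8.59 and 8.83 with IL-4, at 8.82, 8.87, 8.75, 8.57 and 8.78 with IL-13, and at 8.50, 8.46, 8.42, 8.40 and 8.55 with IL-31. Except for PBS 3, every PBS library was below every IL-4, IL-13 and IL-31 library. PBS 3 was also the library with the highest mean over 8 sebaceous gland genes (7.76 log2 CPM, against 5.66 to 6.57 in the other PBS ears), with Scd1, a lipid desaturase of the gland, at 12.75 there.

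The 2 measured Krtap genes lie next to each other on chromosome 11 and encode small high-sulphur proteins of the shaft. Krtap3-2 (99555823 to 99556853) did not follow the hair keratins. With PBS it stood at 1.90, 2.56, 0.39, 4.06 and 3.47 log2 CPM. With IL-4 it was at 3.95, 3.14, 3.69, 4.09 and 4.71, with IL-13 at 3.05, 3.51, 3.43, 4.13 and 3.81, and with IL-31 at 3.77, 3.95, 4.36, 3.45 and 4.39. PBS 1, 2 and 3 were below all 15 cytokine libraries and PBS 4 and 5 were among them, so PBS 4, lowest for Krt25, was highest of the PBS ears for Krtap3-2. Krtap3-3 (99550130 to 99550865) was low, at -0.22, 1.76, -2.68, -0.21 and 1.18 with PBS and between -0.63 and 0.78 in the cytokine libraries. It was highest in PBS 2 and PBS 5, as Krt31 was. The copies of this family are similar in sequence, and the assignment of shared reads between them is uncertain.

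**Figure D2:**
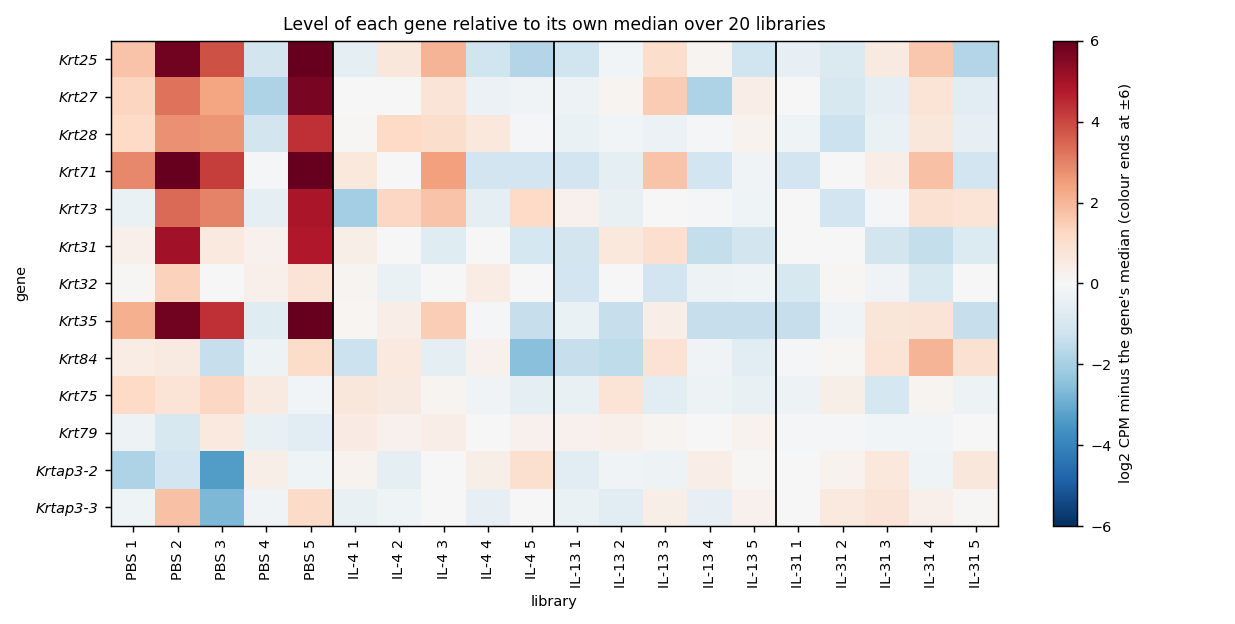
Each gene (rows) in each library (columns), coloured by its log2 CPM minus that gene's median over the 20 libraries. The dark red cells of the inner sheath keratins, Krt35 and Krt31 are in PBS 2, PBS 3 and PBS 5, and those of Krt31 are in PBS 2 and PBS 5 alone, whereas Krtap3-2 is blue in PBS 1 to 3.

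The libraries differed in other tissues as well. Krt5 and Krt14, keratins of basal epidermis and outer root sheath, stood between 12.88 and 14.18 log2 CPM in every library. PBS 1, 2 and 3 had lower means over 10 genes of the epidermis between follicles (8.95, 8.65 and 8.03 log2 CPM) than PBS 4 and 5 (10.43 and 10.50) and than the cytokine libraries (9.88 to 11.40). Krtap3-2 was low in the same 3 libraries, whereas the inner sheath keratins were highest in PBS 5, which had an epidermal mean in the range of the cytokine libraries. Mean levels of 6 neutrophil genes were high in PBS 1, 3 and 5 (5.51, 6.54 and 5.94) and low in PBS 2 and 4 (1.20 and 0.33). PBS 2 was high in inner sheath keratins with a low neutrophil mean. The part of these tissue differences in the keratin values was not tested. Fewer growing follicles in an ear and less keratin RNA per follicle cannot be told apart in such bulk libraries.

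Each cytokine was then compared with PBS in a limma fit over all 20 libraries, with p-values adjusted by the Benjamini-Hochberg method over 16461 genes. The fit took a common spread per gene for all groups. For Krt35 the SD was 2.86 with PBS, but 1.03, 0.81 and 1.08 with IL-4, IL-13 and IL-31. Where PBS libraries spread most, the SE against PBS comes out too small. For Krt35 with IL-4 it was 0.96, and 1.13 with only the 2 groups compared (limma adjusted p = 0.0815). With IL-4, 5 of 12 members passed an adjusted p of 0.05 (41.7%, against 17.8% of all genes tested), 3 lower and 2 higher. Krt71 fell by 4.09 on the log2 scale (SE 1.12, limma adjusted p = 0.017), Krt25 by 3.60 (SE 1.13, adjusted p = 0.0329) and Krt35 by 3.44 (SE 0.96, adjusted p = 0.0189). Krt79 rose by 0.64 (SE 0.19, adjusted p = 0.0228) and Krtap3-2 by 1.44 (SE 0.47, adjusted p = 0.0399). The share of all genes called lower was 9.63% and called higher 8.22%. The median log2 fold change was -1.10 over the 12 members and -0.02 over all genes. Members tested only because of their PBS libraries enter this median and those given below for IL-13 and IL-31. The member medians are therefore descriptive.

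With IL-13, 7 of 12 members passed (58.3%, against 19.7% of all genes), 6 of them lower. Krt71 fell by 4.52 (SE 1.12, limma adjusted p = 0.00921), Krt35 by 4.37 (SE 0.96, adjusted p = 0.00486), Krt25 by 3.70 (SE 1.13, adjusted p = 0.027) and Krt28 by 2.12 (SE 0.66, adjusted p = 0.0298). Smaller falls were those of Krt32 by 1.09 (SE 0.30, adjusted p = 0.0147) and Krt75 by 0.92 (SE 0.32, adjusted p = 0.0479). Krt79 rose by 0.53 (SE 0.19, adjusted p = 0.0476). Of all genes 9.80% were called lower and 9.94% higher, and the median log2 fold change was -1.61 over members and -0.03 over all genes.

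With IL-31, 3 of 12 members passed, all lower (25%, against 6.38% of all genes called). Of all genes 1.20% were called lower and 5.18% higher. These were Krt71, which fell by 4.28 (SE 1.12, limma adjusted p = 0.0306), Krt35, by 3.83 (SE 0.96, adjusted p = 0.0273), and Krt28, by 2.31 (SE 0.66, adjusted p = 0.0421). Krt25 had a log2 fold change of -3.63 (SE 1.13) with an adjusted p of 0.0592. Krt32 and Krt75 had fold changes of -0.91 and -0.96 with adjusted p-values of 0.0705 and 0.0773 in limma, and Krtap3-2 of 1.51 with 0.0599. The median was -1.45 over members and -0.04 over all genes.

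Across the 3 comparisons, which share the PBS libraries, 8 members were called at least once and Krt35 and Krt71 in all 3. Of the 8, Krt25, Krt28, Krt35 and Krt71 passed the filter on low values only through PBS libraries, the group where they were high. The filter let Krt27 through in the same way. The shares of members called lower and the median log2 fold changes over members are therefore descriptive and no evidence about the set. Krt27, Krt73, Krt84 and Krtap3-3 were called in none. In the order IL-4, IL-13, IL-31, the log2 fold changes were -2.13, -2.17 and -2.41 for Krt27 and -1.73, -2.18 and -1.94 for Krt73. No member had groups that did not overlap in any comparison with PBS, against 8.53%, 7.52% and 4.36% of all genes. For each inner sheath keratin PBS 4 was among the cytokine libraries, and for Krt79 PBS 3 was above them.

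**Figure D3:**
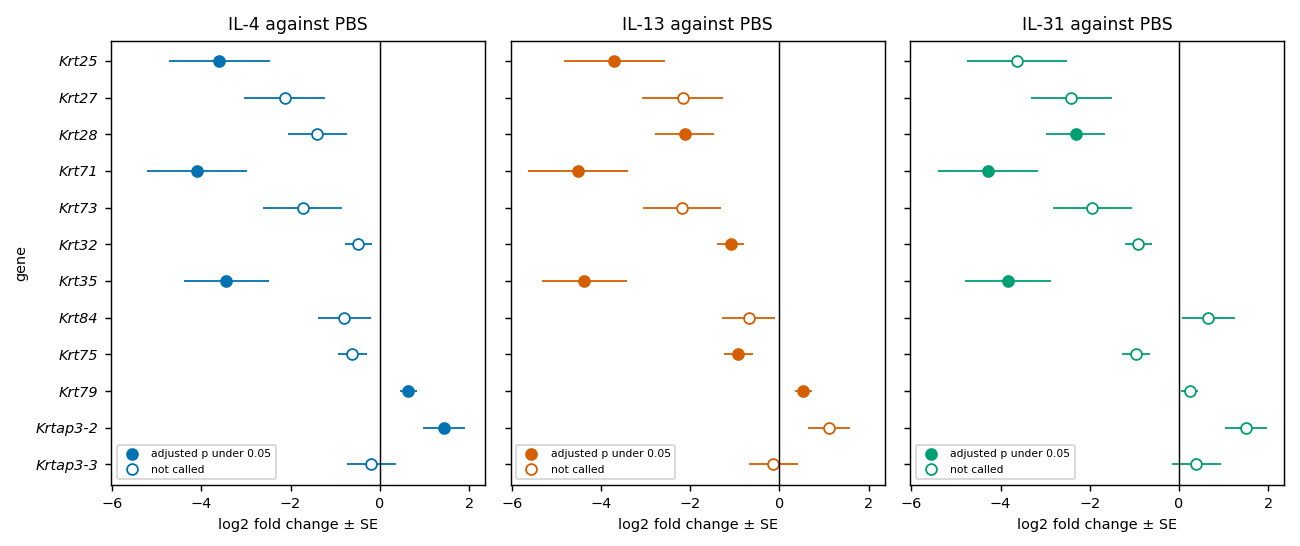
Log2 fold change of each tested member against PBS (horizontal axis, bars show the standard error of the limma fit, n = 5 per group) for each cytokine in a panel of its own, filled where the adjusted p was under 0.05. Krt71 and Krt35 are filled and lie between -3.44 and -4.52 in all 3 panels, with bars about as wide as 1 log2 unit on each side.

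Leaving out 1 of the 10 libraries compared at a time kept the direction of every called member, but most calls were lost in some of these fits. With IL-13, Krt71 and Krt35 kept their calls in all 10 (highest limma adjusted p = 0.0324 and 0.0194) and Krt32 in 9, whereas Krt25 kept its call in 5, Krt28 in 4, Krt75 in 2 and Krt79 in 1 (highest adjusted p = 0.0851, 0.0798, 0.123 and 0.151). With IL-4, Krt71 and Krt79 kept theirs in 9, losing it without PBS 2 (adjusted p = 0.0516 and 0.0721), and Krt35 in 8, Krt25 in 4 and Krtap3-2 in 3 (highest adjusted p = 0.0614, 0.0967 and 0.11). Without PBS 2 no member was called with IL-4 and 2 were with IL-13, beside 1885 and 1995 of all genes. With IL-31, Krt71 and Krt35 kept their calls in 4 of 10 and Krt28 in 2. No member was called with IL-31 without PBS 1, 2 or 3 or without IL-31 1, 3 or 5. Over all genes no call was left without PBS 2, IL-31 3 or IL-31 5. Without PBS 1, PBS 3 and IL-31 1 in turn, 26, 1 and 498 were left. The log2 fold change of Krt71 with IL-31 was nevertheless -4.62, -3.84 and -4.31 without PBS 1, 2 and 3 in turn, beside -4.28 with all libraries. Without PBS 2, 3 and 5 together, an alternative chosen after the values were seen, the log2 fold changes of Krt71 shrank to -1.25, -1.68 and -1.44 with IL-4, IL-13 and IL-31 (adjusted p = 0.507, 0.323 and 0.473). When PBS 1, 2 and 3 were left out, they were -3.95, -4.38 and -4.14 (adjusted p = 0.122, 0.119 and 0.607). Under both of these settings Krt79 was the only member called, with IL-4 and IL-13, and its calls were lost under quantile normalization. Krtap3-2 moved from 1.44 to 0.15 with IL-4 when PBS 1, 2 and 3 were left out (adjusted p = 0.824).

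No member passed the test between cytokines. The limma fit called 0 members and 0 of all genes in each of the 3 comparisons (0.00%). At an unadjusted p under 0.05 there were 0 members for IL-4 against IL-13, 2 for IL-4 against IL-31 and 1 for IL-13 against IL-31, beside 664, 1743 and 1200 of all genes. The differences for Krt71 were 0.43, 0.19 and -0.24 in that order, each smaller than its SE of 1.12 on the log2 scale. The difference for Krt84 was -1.47 on the log2 scale for IL-4 minus IL-31 (SE 0.59, limma adjusted p = 0.343) and -1.35 for IL-13 minus IL-31 (SE 0.59, adjusted p = 0.591). Without IL-31 3, 304 of all genes were called for IL-4 against IL-31 and 297 for IL-13 against IL-31, with 0 members among them. Krt79 was at 8.59 or above in all IL-4 libraries, at 8.57 or above in all IL-13 libraries and at 8.55 or below in all IL-31 libraries. It was the 1 member whose groups did not overlap in these 2 comparisons, against 3.91% and 1.24% of all genes, and its adjusted p was 0.46 and 0.891. For IL-4 against IL-13 no member's groups were free of overlap (0.814% of all genes).

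Within groups, the members spread more than most genes. The pooled within-group SD had a median of 1.07 log2 units over the 12 tested members and 0.27 over all genes tested. In 9 of the 12 it exceeded 0.68, the 90th percentile of all genes. Low genes spread more in general, and 8 of the 12 exceeded the 90th percentile of genes in the same 1-unit bin of mean level. The spread was largest in the PBS group for most members, and the median SD of members was 1.88 there, against 0.57, 0.56 and 0.71 with IL-4, IL-13 and IL-31. Exceptions were Krt84 (0.96 with PBS, 1.24 with IL-4) and Krt75 (0.57 with PBS, 0.58 with IL-13). Krt35 and Krt71 stood at zero reads in 6 of the 15 cytokine libraries each, which limits their spread there. For all genes the corresponding medians were 0.33, 0.21, 0.23 and 0.19. Krt25 ranged over 8.10 log2 units among PBS ears and 3.79 among IL-4 ears.

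**Figure D4:**
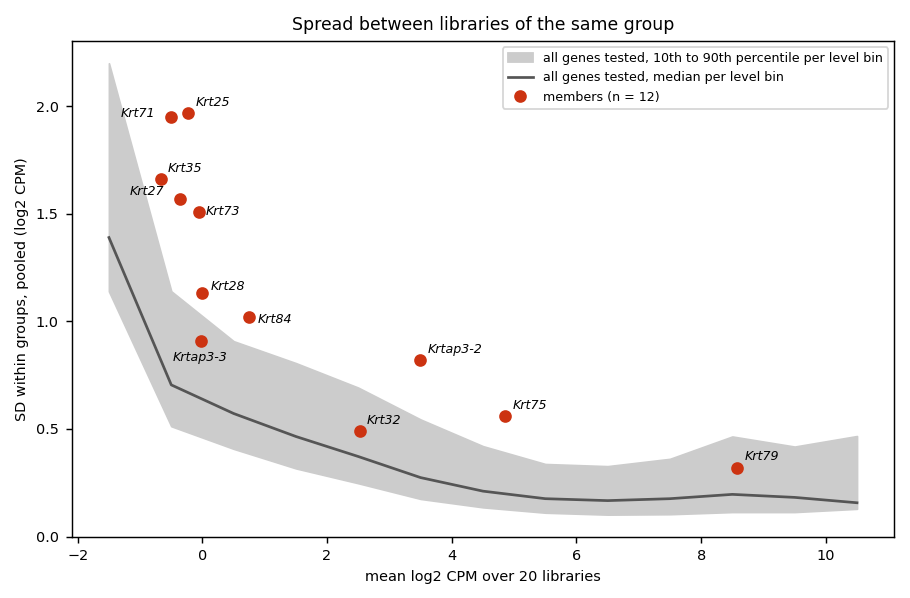
SD within groups (vertical axis, log2 CPM, pooled over the 4 groups) against mean level for the 12 tested members, on the median and the 10th to 90th percentile of all tested genes in bins 1 log2 unit wide. Krt25 and Krt71 lie highest, above 1.90, and 8 of the 12 members exceed the 90th percentile of their bin. Krt25, Krt27, Krt28, Krt35 and Krt71 passed the filter only through PBS libraries, which favours a wide spread.

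PBS 2, PBS 3 and PBS 5 were the 3 highest of the 20 libraries for Krt25, Krt27, Krt28, Krt35, Krt71 and Krt73. The same held for 130 of the 16461 genes tested (0.790%), and 32 of them had the order PBS 5, PBS 2, PBS 3 shown by all 6 members. In 5 genes PBS 3 was also at least 1 log2 unit above the fourth library, and all 5 were members (Krt25, Krt28, Krt35, Krt71 and Krt73). The pattern was read from the members themselves, so these counts describe them and test nothing.

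Other proteins of the shaft and sheath were examined through a list of 13 genes, of which 7 were measured and 6 tested. In the order IL-4, IL-13, IL-31, 1, 2 and 1 of the 6 were called higher than with PBS and none lower: Hephl1, a copper oxidase related to hair structure, in all 3 comparisons and Psors1c2 with IL-13. Tchh, which encodes trichohyalin of the inner sheath and medulla, stood at 4.07, 5.41, 4.05, 3.58 and 7.02 log2 CPM with PBS and between 3.37 and 4.59 in the cytokine libraries. S100a3, a calcium-binding protein of the shaft cuticle, stood at 1.96, 5.78, 1.76, 3.71 and 5.86 with PBS and between 2.80 and 4.32 elsewhere. Both were picked after their values were seen, and were high in PBS 2 and PBS 5 and not in PBS 3, as Krt31 was. The other measured genes of the list did not stand out in both PBS 2 and PBS 5. In these 2 libraries Hephl1 was at 3.84 and 4.32, below every cytokine library, and Psors1c2 at 4.04 and 5.16. Prr9 was at 1.76 and 3.68 there (1.83 in PBS 1), Crym at 0.19 and 1.88, and Tchhl1 at 0.19 and 1.35. Unlike Krt31, S100a3 was below every cytokine library in PBS 1 and PBS 3. Tchh exceeded Krt71 by 0.25 in PBS 5 and by 6.80 in IL-13 1, so Tchh RNA was present where Krt71 was listed at zero reads. Neither Tchh nor S100a3 passed the test in any comparison with PBS (limma adjusted p from 0.116 to 0.98).

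Regulators of the hair matrix did not share the pattern of the keratins. Hoxc13, a homeobox factor that acts on hair keratin genes, stood at 2.93, 3.08, 3.11, 2.84 and 2.70 log2 CPM in PBS 1 to 5 and between 2.17 and 3.27 in the cytokine libraries, with no call against PBS. Foxn1, the nude factor of hair and epidermal differentiation, rose by 0.46 with IL-4 and 0.69 with IL-13 (limma adjusted p = 0.0466 and 0.00559), and Msx2 by 0.58 and 0.60 (adjusted p = 0.0178 and 0.0128). Lef1, a Wnt effector of the matrix and the dermal papilla, fell by 1.20 with IL-13 and 0.98 with IL-31 (adjusted p = 0.00376 and 0.0293). Its PBS levels were 3.14, 2.54, 2.74, 1.84 and 2.39, so it was not highest in PBS 5. Of 11 measured regulators, 5, 6 and 3 were called higher and 0, 1 and 1 lower with IL-4, IL-13 and IL-31. Several of those called higher, among them Dlx3 and Prdm1, are also made by the epidermis, whose genes were higher in the same comparisons, and the part of that in their rise was not tested. Shh was not analysed here.

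**Figure D5:**
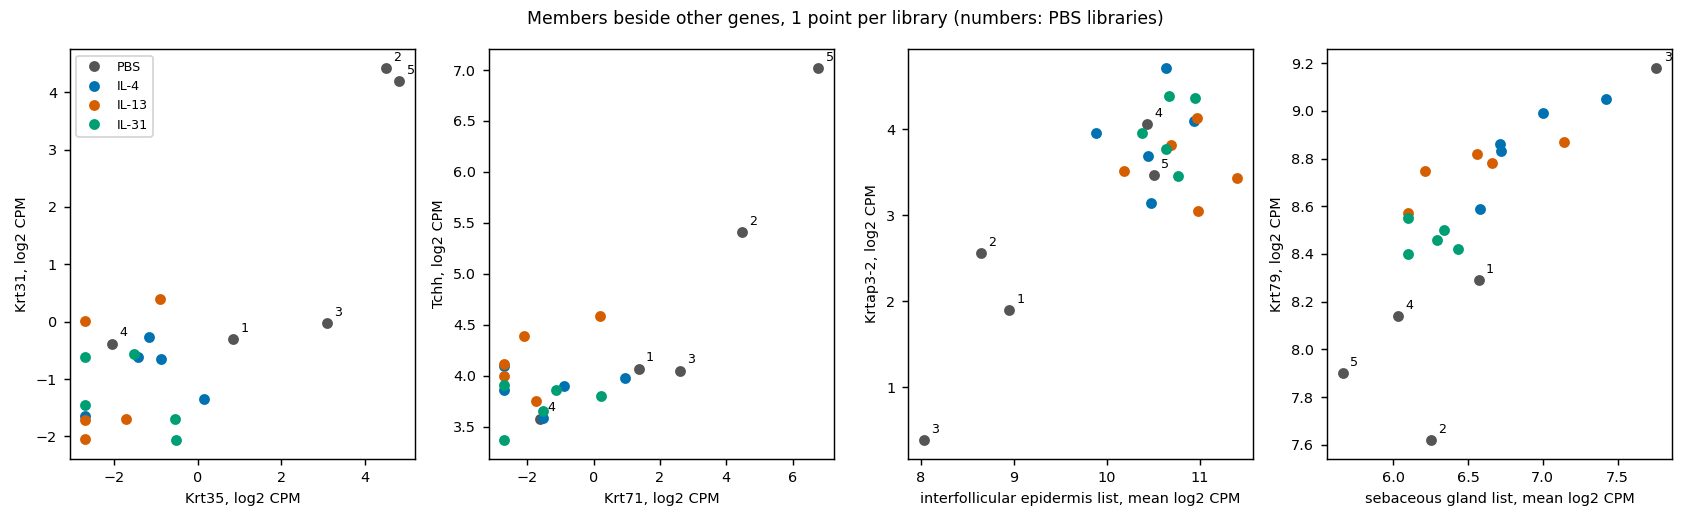
Each point is 1 library, coloured by group, with PBS libraries numbered: Krt31 against Krt35, Tchh against Krt71, Krtap3-2 against the mean of 10 epidermal genes, and Krt79 against the mean of 8 sebaceous gland genes, all in log2 CPM. PBS 3 is high for Krt35 and low for Krt31, PBS 1, 2 and 3 are low on both axes of the Krtap3-2 panel, and PBS 3 is highest on both axes of the Krt79 panel.

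Genes of the resting follicle and of other compartments are given by their counts against PBS. Of 12 follicle stem cell genes, 1 was higher with IL-4 (Nfatc1), 1 lower with IL-13 (Cd34) and none was called with IL-31. Lgr5, a marker of bulge and germ cells, stood at 4.29, 3.72, 4.72, 3.61 and 3.13 log2 CPM with PBS, lowest in PBS 5, and passed no test against PBS (adjusted p from 0.104 to 0.787 in limma). Cd34, a marker of bulge cells and of vessels, fell by 0.66 with IL-13 (limma adjusted p = 0.0454). Of 9 dermal papilla genes 0, 0 and 0 were higher and 3, 2 and 0 lower with IL-4, IL-13 and IL-31. Of 9 pigment genes only Mitf was called, lower with IL-13. None of 10 proliferation genes and none of 8 sebaceous gland genes was called against PBS. The proliferation mean was highest of the PBS ears in PBS 5 (5.29 log2 CPM, against 4.31 to 4.77), and IL-13 1 and IL-13 3 were higher still (5.70 and 5.33). Of 10 epidermal genes 5, 7 and 5 were higher, and of 10 skeletal muscle genes 10, 10 and 0 lower. None of 6 neutrophil genes was called.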

How the data were processed

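Total RNA of 20 ear pinna samples was sequenced (NEBNext Ultra II libraries), 5 in each of 4 groups taken from the labels. The authors deposited log2 CPM with an offset near 0.156 CPM (lowest value -2.684 in every library), and edgeR and GRCm38 are named in the submitters' processing notes. Aligner, counting tool, strand setting and annotation were not given in the sources used here. Low values came out as whole reads (tolerance 0.02) for 79.1% to 84.9% of entries, too few to recover counts, so no count model was used. Approximate reads are linear CPM divided by that step and cover counting error only.

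Symbols and coordinates were taken from GENCODE M21 (16644 of 16669 identifiers matched) and upstream sequences from RefSeq. The log2 values as deposited were fitted with limma 3.58.1 (R 4.3.3), 4 groups in 1 model, eBayes with trend, for 6 comparisons. Genes at 0 or above in at least 5 libraries were tested (208 removed). The fit was checked on simulated data with the same SD per gene in every group and no floor at zero reads. That check could not show the effect of a wider spread in the PBS group. The members, lists and tests were chosen with earlier results of these data known, and the 6 motifs were chosen during the work. Members called in any comparison and the 3 most abundant of each class are named. Of other genes, counts per list and a few preset genes are given. Tchh, S100a3, Hephl1, Psors1c2, Nfatc1, Mitf, Dlx3 and Prdm1 were added after their values were seen. Alternatives tried were another offset, no filter, a stricter filter, quantile normalization, the compared groups alone, no trend, library weights, the replicate number as a block, and leaving out libraries.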

Additional observations from a re-analysis of the deposited data

Results flagged for a closer look

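Of 52 sets of 5 libraries (13 genes in 4 groups), 2 held a library far from the other 4. With independent, normally distributed sets about 1 in 20 would be placed there. The 13 genes share their libraries and some values are tied at zero reads, so 2 of 52 cannot be judged against that rate. Krt27 stood at -0.06 log2 CPM in IL-4 3, with -0.88 the nearest of the other IL-4 libraries. IL-4 3 was also the highest cytokine library for Krt25, Krt71, Krt73 and Krt35. Krt75 stood at 5.58 log2 CPM in IL-13 2, with 4.44 the nearest of the other IL-13 libraries.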

How the results depend on the processing

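Against PBS, the count of members called was 5 with IL-4, 7 with IL-13 and 3 with IL-31. Leaving out 1 library at a time gave between 0 and 8, between 2 and 8 and between 0 and 6, and 0 throughout between cytokines. Over all 16461 genes, the same fits against PBS called between 1885 and 3553, between 1995 and 4703 and between 0 and 3029. A stricter filter (log2 of at least 1 in 10 libraries) left only 4 members to test, since most members are below it. Of these, 2, 3 and 0 were called, beside 2874, 3155 and 1135 of 14111 genes. With only the 2 groups compared in the fit the counts were 0, 1 and 0. The spread then came from those groups alone, and the SE of Krt71 with IL-4 was 1.30 instead of 1.12 (limma adjusted p = 0.0733). Whether fewer libraries or the spread of the PBS group lowered the counts was not tested. Without PBS 1, 2 and 3 the counts were 1, 1 and 0, and without PBS 2, 3 and 5 again 1, 1 and 0. Quantile normalization gave 4 with IL-13, and the calls of Krt32, Krt75 and Krt79 were lost there. It also moved the split of all genes called, from 1353 higher and 1585 lower to 1761 and 1200 with IL-4, and from 1637 and 1613 to 1910 and 1198 with IL-13. Library weights gave 6 with IL-31. For quantile normalization and weights the cause was not tested. Counts over all genes with only the compared groups were 1269, 1134 and 0, against 2938, 3250 and 1050. With weights they were 1667 for IL-31 against PBS, 692 for IL-4 against IL-31 and 535 for IL-13 against IL-31, no member among the last 2. Without PBS 1, 2 and 3 they were 1200, 385 and 0, and without PBS 2, 3 and 5 464, 690 and 0.

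Among the 12 tested members against PBS, log2 fold changes that turned without PBS 2, 3 and 5 were those of Krt27 (0.31), Krt28 (0.52) and Krt73 (0.82) with IL-4, Krt27 (0.27), Krt73 (0.37) and Krtap3-3 (0.04) with IL-13, and Krt27 (0.03) and Krt73 (0.61) with IL-31. Without PBS 1, 2 and 3, Krtap3-2 turned to -0.18 with IL-13 and Krtap3-3 to -0.13 with IL-31. Krtap3-3 also turned to 0.03 with IL-13 under quantile normalization. Leaving out 1 library at a time, it ranged from -0.85 to 0.26 with IL-4, from -0.80 to 0.31 with IL-13 and from -0.27 to 0.84 with IL-31, and Krt71 ranged from -0.15 to 0.93 for IL-4 minus IL-13, from -0.38 to 0.64 for IL-4 minus IL-31 and from -0.74 to 0.21 for IL-13 minus IL-31. None of the turned values was called. With no filter, Krt31 entered and fell by 2.48, 2.60 and 2.86 (limma adjusted p = 0.0454, 0.0349 and 0.046).

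Libraries of different groups share replicate numbers. Deviations of 30 same-numbered pairs correlated at a median of 0.038 (-0.236 to 0.486), 10 above 0.1, and 10 of 60 best matches had the same number, so the numbers were not taken as pairs. The replicate block gave 5, 7 and 5 members, beside 2952, 3252 and 1247 of all genes. With IL-31 the block shared 2 of the 3 calls (Krt35 and Krt71), Krt28 had an adjusted p of 0.0523, and Krt32, Krt75 and Krtap3-2 were called.

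In the shallowest library, IL-4 5, 3 reads were worth 0.49 CPM, and the median over all libraries was 0.231 CPM. Differences among cytokine libraries near zero reads may therefore have gone undetected, and no detection limit was computed.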
